A study of Mus musculus with 217 samples.

Results

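Oocytes from 10-month-old wild-type mice that drank resveratrol were set against oocytes of the same age and genotype whose mice drank the solvent alone. These are every single-oocyte library labelled 10-month wild type, 14 with resveratrol and 20 controls, and make up 34 of the 217 libraries of the series. Resveratrol mice drank water with 30 mg resveratrol per L, carried in 500 µl DMSO, and control mice drank water with the same volume of DMSO. Per the labels, both groups were treated from 2 months of age until collection at 10 months, both are of a mixed C57BL6/129 background, and both received gonadotropins before collection. Each library is 1 metaphase II oocyte, freed of cumulus cells with hyaluronidase and amplified with Smart-seq2. No mouse is named for any oocyte, so each group counts as 1 sample, and the ratio between the groups has no replicate check and no p-value.

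Resveratrol is a plant polyphenol that is studied for its action on sirtuins, the NAD-dependent deacylases, and on AMP-activated protein kinase and antioxidant genes. A metaphase II oocyte has arrested in its second meiotic division and is nearly silent in transcription. It lives on messenger RNA stored during growth, which is masked, translated or destroyed on a schedule. Synthesis, storage and decay of an RNA cannot be told apart in read counts.

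The 34 libraries were close in depth, with 4255147 to 4488944 counts in resveratrol oocytes and 4268722 to 4445439 in control oocytes. All 10 oocyte markers examined were abundant: the secreted growth factor gene Gdf9 had 6446 CPM (the read count scaled to a library total common to all libraries) in summed resveratrol oocytes and 6678 CPM in summed control oocytes, and Bmp15 had 4528 CPM with resveratrol and 4419 CPM in controls. Markers of cumulus and granulosa cells took 0.0053 to 0.0094% of the counts of a resveratrol oocyte and 0.0020 to 0.0076% of those of a control oocyte, and 24 of the 26 lay under 10 CPM in both groups. Akr1c18 had no count in either group. Macrophage markers took 0.0030 to 0.0214% of the counts of a resveratrol oocyte and 0.0013 to 0.0093% of those of a control oocyte. The highest of these shares came from 1 oocyte of resveratrol set 2, with 55.3 CPM of the lysozyme gene Lyz2 and 25.2 CPM of Tyrobp.

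The column names of the count table carry a number after the group letters that divides each group into 2 sets. No label or header says what this number marks. Resveratrol set 1 and set 2 hold 7 oocytes each, control set 1 holds 11 and control set 2 holds 9. Control set 1 stood apart from the other 3 sets. On the first principal component of log2(CPM + 1) over 5275 genes, resveratrol oocytes lay between 2.75 and 22.8, control set 1 oocytes between -44.7 and -15.1, and control set 2 oocytes between 5.92 and 24.9. Control set 2 therefore overlapped the resveratrol oocytes and control set 1 did not. Control set 1 differed from control set 2 past 1.5-fold at 2934 of 7318 genes (40.1%), whereas resveratrol set 1 differed from resveratrol set 2 at 957 of 7465 (12.8%). Values are therefore given by set for the genes described most fully, and the ratio without a control set is given where it no longer passed 1.5-fold or changed sign.

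**Figure D1:**
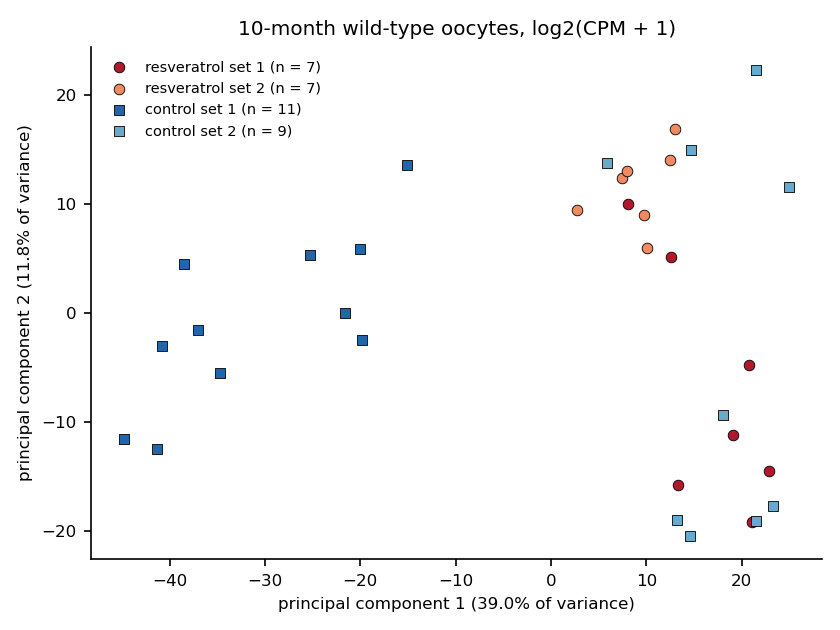
First and second principal components of 34 oocytes of 10-month wild-type mice (log2(CPM + 1), 39.0% and 11.8% of the variance), 1 point per oocyte. All 11 control set 1 oocytes lie at -15.1 or below on the first component and all others at 2.75 or above.

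Most genes that differed past 1.5-fold were higher with resveratrol. Of 7344 genes that reached 10 CPM in at least 1 group sum, 929 (12.6%) lay past 1.5-fold between the summed groups, 795 (10.8%) higher and 134 (1.82%) lower with resveratrol. The median log2 ratio of all these genes was 0.12, so the typical gene was slightly higher with resveratrol when libraries were scaled by their totals. With TMM scaling, which centres the bulk of genes, the median was -0.04 and the split was even, with 376 genes (5.12%) higher and 396 (5.39%) lower. Ratios below are on library totals, and a TMM ratio is lower by 0.16 on the log2 scale. Without control set 1 the count was 678 higher (9.21%) and 234 lower (3.18%), together 12.4% of genes, and without control set 2 it was 1854 higher (24.9%) and 628 lower (8.44%), together 33.4%. Of the 795 higher genes, 319 were past 1.5-fold without control set 1, 237 were so against each control set taken alone, and 35 had the opposite sign without control set 1. Of the 134 lower genes, 30 were past 1.5-fold without control set 1, 19 were so against each control set, and 31 had the opposite sign. Both resveratrol sets lay above both control sets at 586 of the 795 (7.98% of all genes) and below both at 83 of the 134 (1.13%), while regardless of fold 25.5% and 7.49% of all 7344 genes showed the same order.

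Of the genes at 20 CPM or more whose interquartile ranges of oocytes lay apart, clone-named models left out, the one with the largest ratio was Kcnk18, which encodes the two-pore potassium channel TRESK and lies on chromosome 19 from 59219214 to 59237374 (GRCm38, plus strand). A resveratrol oocyte had 28.5, 40.6 and 52.9 CPM of it at the lowest, the median and the highest, and a control oocyte had 0, 0 and 0.47 CPM. All 14 resveratrol oocytes were above all 20 control oocytes, of which 12 had no count. The summed level was 40.0 CPM with resveratrol and 0.13 CPM in controls, from 2432 and 11 counts (log2 ratio 8.25, exact conditional Poisson 95% interval 7.47 to 9.32, which covers counting error only). The sets had 41.3 and 38.8 CPM with resveratrol and 0.06 and 0.20 CPM in controls, so both control sets shared the near absence.

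Under the same limits the smallest ratio was that of Prelid1, whose protein carries phosphatidic acid between the membranes of mitochondria (chromosome 13, 55320500 to 55325272, GRCm38, plus strand). Its lowest, median and highest values were 2.35, 6.46 and 10.5 CPM in resveratrol oocytes and 15.4, 29.7 and 44.4 CPM in control oocytes, and the groups did not overlap. The sums were 6.85 CPM with resveratrol and 29.3 CPM in controls (log2 ratio -2.10, interval -2.25 to -1.95), and the sets had 6.48 and 7.20 CPM with resveratrol and 32.6 and 25.2 CPM in controls. Prelid1 overlaps Rab24 and Mxd3 on the other strand, and no label says that counting took account of strand, so its counts may include theirs. The promoters of Kcnk18 and Prelid1 are shown because these genes had the largest and the smallest ratio under these limits and their levels separated every oocyte of the groups. The sequences are RefSeq's (GRCm38.p6), 300 bases each, from 250 before to 50 after the start. The Kcnk18 window spans chr19:59219398-59219697 and the Prelid1 window spans chr13:55321805-55322104, both on the plus strand. Both windows lie inside the gene spans given above, which are from the GENCODE vM21 annotation and start earlier. CG dinucleotides are in capitals.
Kcnk18: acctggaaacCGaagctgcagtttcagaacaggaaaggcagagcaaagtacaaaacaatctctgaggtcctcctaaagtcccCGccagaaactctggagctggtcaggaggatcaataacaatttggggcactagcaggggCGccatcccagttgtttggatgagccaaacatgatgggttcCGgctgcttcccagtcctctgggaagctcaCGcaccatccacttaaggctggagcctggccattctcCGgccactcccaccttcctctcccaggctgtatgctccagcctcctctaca
Prelid1: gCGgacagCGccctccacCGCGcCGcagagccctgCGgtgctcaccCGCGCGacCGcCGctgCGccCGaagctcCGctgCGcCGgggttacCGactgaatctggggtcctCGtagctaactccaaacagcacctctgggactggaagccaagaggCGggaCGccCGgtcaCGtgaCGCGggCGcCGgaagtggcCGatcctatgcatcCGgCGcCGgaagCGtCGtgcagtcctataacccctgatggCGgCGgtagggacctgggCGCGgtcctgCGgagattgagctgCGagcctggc
The Kcnk18 window holds 6 CG and the Prelid1 window 38, against a median of 7 in 32851 RefSeq promoters of this length, of which 56.4% hold 6 or more and 4.95% hold 38 or more. No methylation was measured in these libraries.

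High and low levels of both genes also occurred in sets of other groups. Kcnk18 was also near 0 in 5 other of the 26 sets of single oocytes, namely sets 1, 2 and 4 of the 2-month wild type (0.06, 0.30 and 0 CPM), set 2 of the 2-month knockout (0.16 CPM) and set 1 of the 10-month knockout controls (0.05 CPM). The remaining sets had 18.2 to 59.95 CPM, and no set lay between. In the 6-month wild type it had 35.5 CPM with resveratrol and 59.3 CPM in controls. Prelid1 was also low in set 1 of the 2-month wild type (3.71 CPM) and set 2 of the 2-month knockout (8.16 CPM), and had 12.04 to 47.5 CPM in the other sets outside these groups. The titles call the 18 oocytes of the 2-month wild type wild type, but their genotype tag reads Tet2 knockout, so the genotype of these sets is uncertain from the labels. Their sets 1 to 4 had 2.8, 2.3, 3.5 and 4.8 CPM of Tet2. The other sets titled wild type had 2.05 to 3.43 CPM of it, and the sets titled knockout had 0.76 to 1.84 CPM. Among the sets titled 2-month knockout, which carry no such conflict, Kcnk18 had 31.9 CPM in set 1 and 0.16 CPM in set 2.

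**Figure D2:**
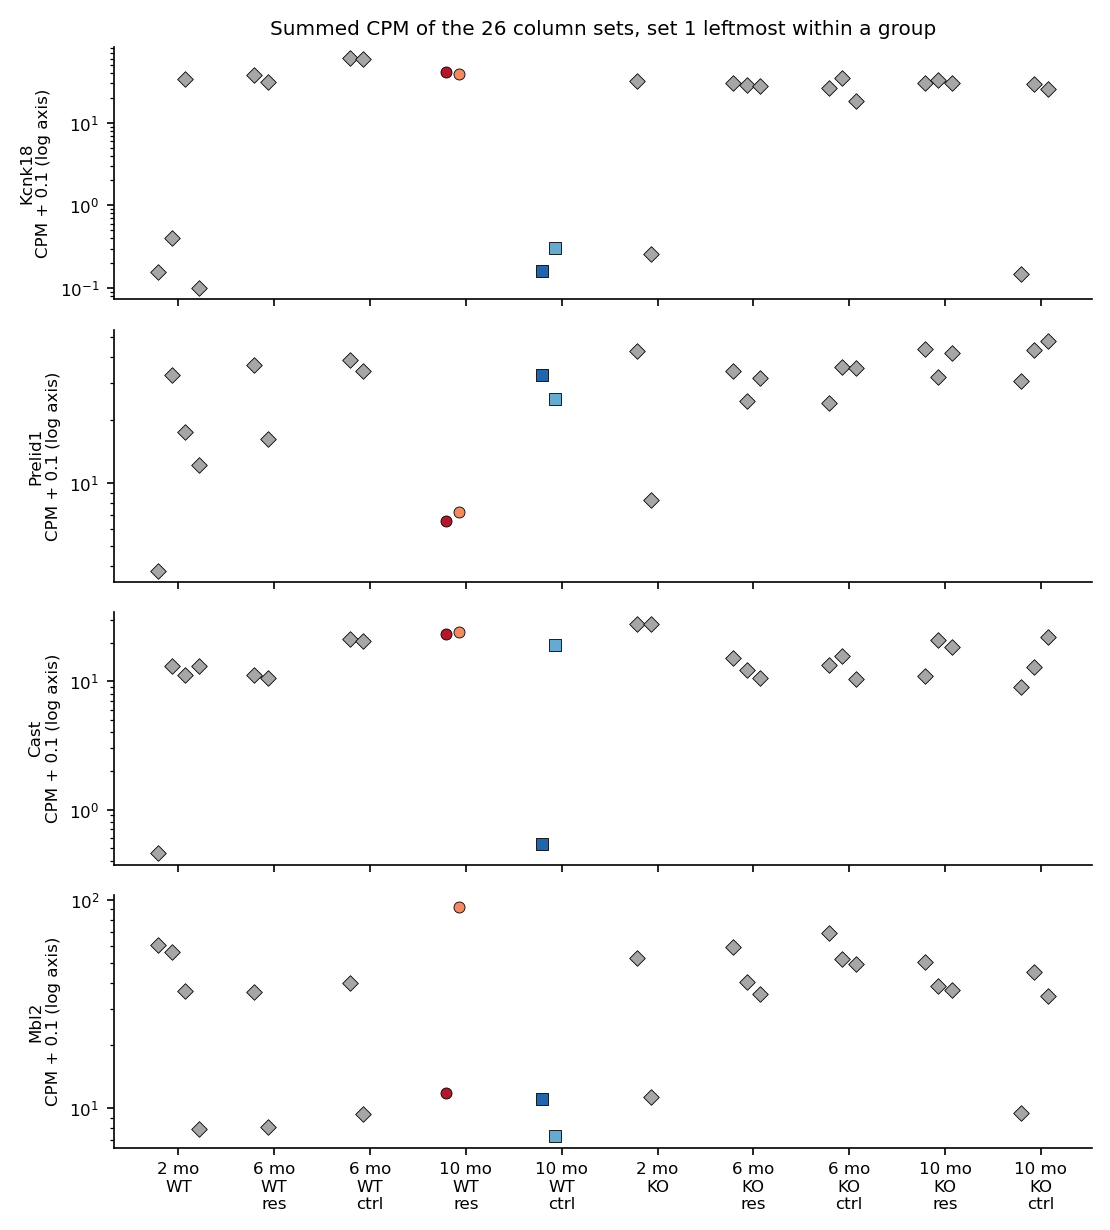
Summed CPM plus 0.1 (log axis) of Kcnk18, Prelid1, Cast and Mbl2 in each of 26 column sets of single oocytes, by age, genotype and treatment (res, resveratrol; ctrl, control). Sets of 10-month wild type are coloured, red circles for resveratrol and blue squares for controls; Kcnk18 lies near 0 in 7 sets and above 18 CPM in the other 19.

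Among the 12 named genes with the largest ratios, Wfdc3 came next after Kcnk18 of those past 1.5-fold against each control set in both resveratrol sets. Wfdc3, a gene of the whey acidic protein family of protease inhibitors, had 67.5, 115 and 194 CPM at the lowest, median and highest resveratrol oocyte, and 7.70, 21.5 and 40.3 CPM in controls. Its groups did not overlap, and the sets had 77.7 and 155 CPM with resveratrol and 18.7 and 26.1 CPM in controls (log2 ratio 2.41, interval 2.34 to 2.48). Mbl2, which encodes the mannose-binding lectin of innate immunity, had a similar log2 ratio (2.5) but from 1 set only. Resveratrol set 1 had 11.7 CPM, resveratrol set 2 had 92.7 CPM, and the control sets had 10.9 and 7.24 CPM, so resveratrol set 1 was at the control level. In sets of other groups Mbl2 lay either at 7.88 to 11.2 CPM or, in most, at 34.4 to 69.6 CPM. The control sets of the 6-month wild type had 40.0 and 9.26 CPM.

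Elovl7, an elongase of very-long-chain fatty acids, and Snx30, a sorting nexin of endosomes, were higher with resveratrol against each control set. Elovl7 had 32.1 and 32.7 CPM in the resveratrol sets and 8.33 and 15.7 CPM in the control sets (log2 ratio 1.48, interval 1.37 to 1.59). Its oocytes ranged from 20.6 to 56.0 CPM with resveratrol and from 2.72 to 27.7 CPM in controls, so the highest control oocytes overlapped the lowest resveratrol oocytes. Snx30 had 40.9 and 23.5 CPM with resveratrol and 7.66 and 21.1 CPM in controls. Cast, which encodes calpastatin, the inhibitor of calpain proteases, had 23.4 and 24.0 CPM with resveratrol, but 0.43 CPM in control set 1 and 19 CPM in control set 2. Its log2 ratio of 1.44 was 0.32 without control set 1, and the low level recurred in set 1 of the 2-month wild type at 0.35 CPM.

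A further 5 of the 12 genes with the largest ratios were higher in resveratrol set 2 than in resveratrol set 1. They are Gstm5 (a glutathione S-transferase), Ndufa1 (a subunit of respiratory complex I), Ftl1 (the ferritin light chain), Rpl41 (a ribosomal protein) and Pcbd2 (a pterin dehydratase). Gstm5 had 121 and 216 CPM in the resveratrol sets and 79.6 and 49.3 CPM in the control sets (log2 ratio 1.35, interval 1.31 to 1.4). Ndufa1 had 41.2 and 68.7 CPM with resveratrol and 26.6 and 16.2 CPM in controls (log2 ratio 1.33, interval 1.25 to 1.41). Rpl41 had 18.98 and 58.5 CPM with resveratrol and 15.2 and 8.54 CPM in controls, and its oocytes overlapped from 6.08 to 41.9 CPM. Ftl1 had 40.9 and 92.2 CPM with resveratrol and 29.3 and 27.2 CPM in controls. Its highest value, 276 CPM, came from the oocyte with macrophage markers, and the log2 ratio of 1.24 was 0.84 without that oocyte. Rpl41 and Ftl1 have near-identical copies in the genome, so their counts are uncertain. In the 10-month knockout Gstm5, Ndufa1, Ftl1, Rpl41 and Pcbd2 had log2 ratios of -0.77, -0.82, -1.45, -1.35 and -0.52. In the same order they had 0.88, 0.45, 0.80, 2.01 and 0.24 in the 6-month wild type. The values were 0.15, 0.16, -0.70, -0.32 and 0.27 in the 6-month knockout. In 10-month C57BL6 oocytes they were 0.79, 0.76, 1.19, 0.59 and 1.32.

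**Figure D3:**
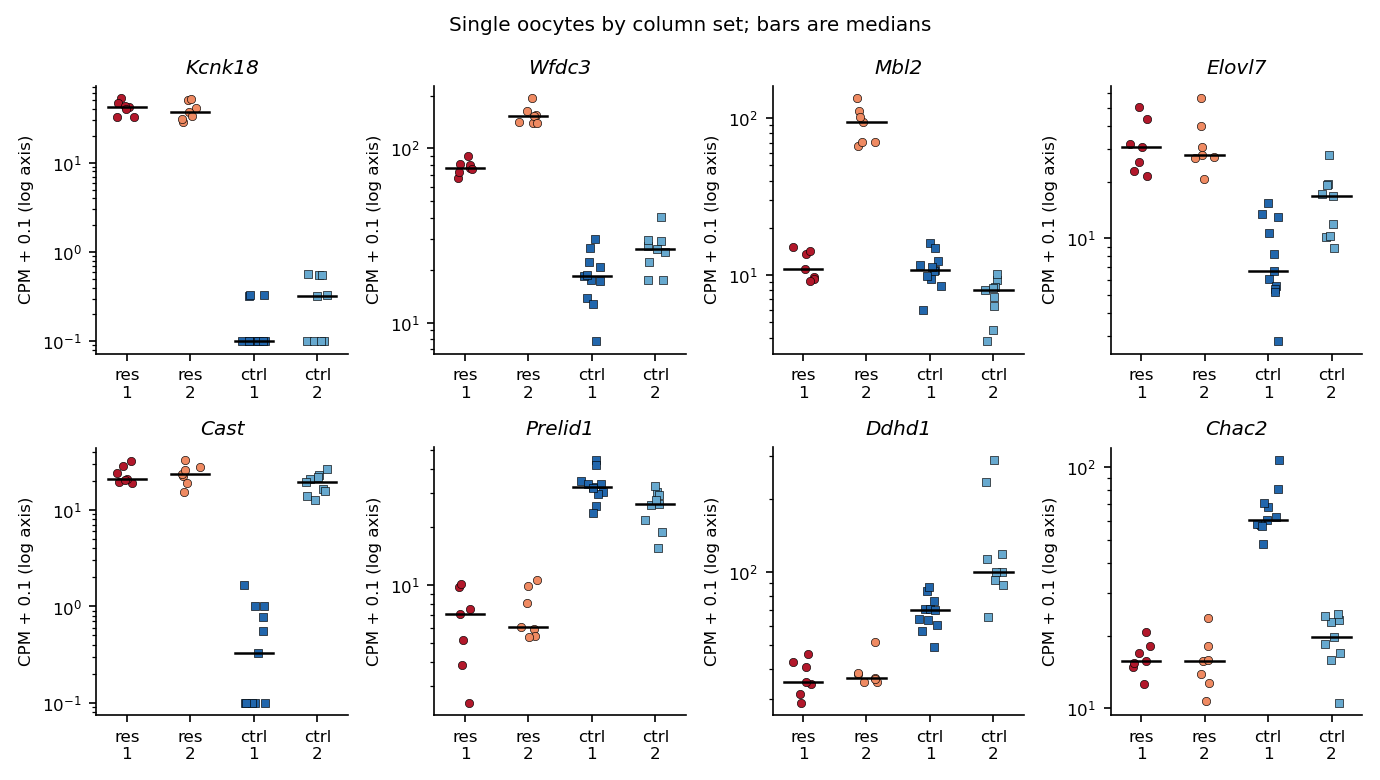
CPM plus 0.1 (log axis) of 8 genes in each oocyte of resveratrol sets 1 and 2 (res, red circles) and control sets 1 and 2 (ctrl, blue squares), with set medians as bars. Kcnk18, Wfdc3 and Prelid1 separate all resveratrol from all control oocytes, Mbl2 is high in resveratrol set 2 alone, and Cast and Chac2 stand apart in control set 1 alone.

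Among the genes lower with resveratrol, Ddhd1 was low against each control set. It encodes a phospholipase that cleaves phosphatidic acid (chromosome 14, 45588467 to 45658143, GRCm38, minus strand). Resveratrol oocytes had 28.8, 36.3 and 51.5 CPM at the lowest, median and highest, and control oocytes had 49.0, 79.8 and 291 CPM, so only the edges met. The sets had 36.9 and 38.7 CPM with resveratrol and 68.3 and 134 CPM in controls (log2 ratio -1.37, interval -1.43 to -1.30). Control set 2 held oocytes with 291 and 234 CPM, and its next highest had 118 CPM. The log2 ratio of oocyte medians was -1.14. In the other 22 sets Ddhd1 lay between 76.8 and 158 CPM, above both resveratrol sets. Srebf2, the transcription factor that drives cholesterol synthesis genes, had 8.51 and 7.73 CPM with resveratrol and 17.8 and 21.8 CPM in controls (log2 ratio -1.27, interval -1.42 to -1.13). Srebf2 overlaps Mir33 and Ddhd1 overlaps Gm15601 among others.

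Other low genes depended on control set 1. Chac2, which encodes an enzyme that degrades glutathione, had 16.3 and 15.7 CPM with resveratrol, 66.0 CPM in control set 1 and 19.5 CPM in control set 2. Its log2 ratio of -1.5 was -0.28 without control set 1. Ginm1, a membrane glycoprotein gene, Med11, a subunit of the Mediator complex, Crb3, a cell polarity gene, and Sys1, a Golgi trafficking gene, had log2 ratios of -0.91, -0.87, -0.85 and -0.83, and of -0.22, -0.30, -0.32 and -0.32 without control set 1. Tulp3, which takes part in transport into cilia, had -0.82 in all and -0.41 without control set 2. Of the 9 oocytes of control set 2, 2 had 162 and 159 CPM and the other 7 had 29.9 to 54.5 CPM, and the ratio of oocyte medians was -0.41. Obox7, an oocyte-specific homeobox gene, had 251 and 276 CPM with resveratrol and 607 and 376 CPM in controls (log2 ratio -0.93, and -0.51 without control set 1), but the Obox family is near-identical and its counts are uncertain. Lin37, a subunit of the MuvB complex that represses cell cycle genes, had 17.3 and 20.9 CPM with resveratrol and 41.5 and 27.2 CPM in controls (log2 ratio -0.88, and -0.51 without control set 1). The F-box gene Fbxo15 was at -0.81, and at -0.55 without control set 1. Fam234b did not depend on this set, with 17.5 and 14.0 CPM with resveratrol and 32.2 and 29.2 CPM in controls (log2 ratio -0.97, and -0.90 without control set 1). With the resveratrol sets summed, 11 of the 12 named genes with the largest ratios were past 1.5-fold against each control set, and 3 of the 12 with the smallest. The 11 include Mbl2, which was at the control level in resveratrol set 1. Another annotated gene overlaps 6 of the 12 highest and 10 of the 12 lowest.

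Genes of the pathways through which resveratrol is proposed to act had a median ratio like that of all genes. Of 28 such genes 16 were at 10 CPM or more, of which 1 was past 1.5-fold higher and 0 lower, against 10.8% higher and 1.82% lower of all genes, with a median log2 ratio of 0.12, equal to that of all genes. The exception was Prkag1, a regulatory subunit of AMP-activated protein kinase, with 14.7 and 14.6 CPM in the resveratrol sets and 8.97 and 9.18 CPM in the control sets (log2 ratio 0.70, interval 0.56 to 0.84). Sirt1, the best known sirtuin, had 7.78 and 11.5 CPM in the resveratrol sets and 6.23 and 19.1 CPM in the control sets. Its oocytes ranged from 2.99 to 14.7 CPM with resveratrol and from 2.28 to 39.5 CPM in controls. The log2 ratio of -0.31 (interval -0.46 to -0.17) was 0.63 without control set 2 and -0.99 without control set 1. The control set 2 oocytes highest in Ddhd1 had 36.3 and 39.5 CPM of Sirt1, and the next highest of that set had 20.05 CPM. Sirt4, Sirt6 and Sirt7 had log2 ratios of 0.08, -0.01 and 0.17. The oestrogen receptor gene Esr2 had 103 and 99.8 CPM with resveratrol and 70.9 and 71.6 CPM in controls (log2 ratio 0.51). Tet2, the dioxygenase gene deleted in the knockout strata, had 3.42 and 3.36 CPM with resveratrol and 2.51 and 2.56 CPM in controls (log2 ratio 0.42, interval 0.14 to 0.70), from 206 and 221 counts. Of 29 antioxidant genes 15 were measured at 10 CPM or more, with 1 higher, 1 lower and a median of 0.26. That median was -0.04 without resveratrol set 2, 0.09 without control set 2 and 0.10 with TMM. All genes had medians of 0.09, 0.16 and -0.04 under these settings. Gpx1 was the higher (log2 ratio 0.64, and 0.17 without control set 1) and Gpx3 the lower (-0.71, and 0.23 without control set 1).

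Oocyte genes were mixed. The subcortical maternal complex, a set of proteins under the oocyte membrane that embryos need for their first divisions, had 3 of 10 members higher and 0 lower, against 10.8% and 1.82% of all genes. Its median was 0.26, and 0.12 without resveratrol set 1, 0.03 in sets numbered 1 and 0.09 with TMM, where all genes had medians of 0.11, 0.13 and -0.04. Khdc3 had 26.4 and 41.8 CPM in the resveratrol sets and 12.6 and 18.7 CPM in the control sets (log2 ratio 1.16, interval 1.06 to 1.26). Ooep had 484 and 858 CPM with resveratrol and 476 and 279 CPM in controls (log2 ratio 0.79), so resveratrol set 1 lay next to control set 1, and the ratio was 0.50 without control set 2. Nlrp5 had a log2 ratio of 0.65, which was 0.27 without control set 1. Zbed3, the most abundant member, had 20140 and 17050 CPM with resveratrol and 25830 and 21790 CPM in controls (log2 ratio -0.37), and Nlrp2 was at -0.41. Of 18 zona pellucida, growth factor and transcription factor genes 15 were measured, 2 of them higher, with a median of 0.19. Zp1, a zona pellucida protein gene, had 243 and 275 CPM with resveratrol and 125 and 207 CPM in controls (log2 ratio 0.68, interval 0.65 to 0.71, and 0.32 without control set 1).

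In 8 of the 21 lists plotted the median changed sign between control set 1 alone and control set 2 alone. They are the lists of the spindle, meiotic maturation, complex I, mitochondrial dynamics, the proteasome, autophagy, the Bcl2 family and histone methylation. Over all genes the medians were 0.12 against control set 2 alone and 0.16 against control set 1 alone. With all controls, 10.8% of all genes were higher and 1.82% lower. Of the 25 spindle checkpoint, passenger complex and cohesin genes 21 were measured, 0 passed 1.5-fold in either direction and the median was -0.08, but it was 0.19 against control set 2 alone and -0.19 against control set 1 alone. Bub1, a kinase of the spindle checkpoint, had 55.7 and 46.0 CPM with resveratrol and 35.4 and 40.7 CPM in controls (log2 ratio 0.43), and Incenp, a subunit of the passenger complex, had a log2 ratio of 0.37. Among 21 measured genes of meiotic maturation and metaphase arrest 3 were higher and 0 lower, with a median of -0.04, which was 0.16 against control set 2 alone and -0.12 against control set 1 alone. Ensa, an inhibitor of the phosphatase that opposes Cdk1, was higher against each control set (15.8 and 21.4 CPM with resveratrol, 11.9 and 10.4 CPM in controls, log2 ratio 0.73). Mapk3, a kinase that helps hold the metaphase arrest, had 119 and 226 CPM with resveratrol and 133 and 41.5 CPM in controls, so resveratrol set 1 lay below control set 1, and its log2 ratio of 0.91 was 0.38 without control set 2. In the list of maternal mRNA storage and decay 0 of 21 passed, with a median of 0.02. Igf2bp2, an mRNA-binding protein, had 456 CPM in each resveratrol set and 334 and 295 CPM in controls (log2 ratio 0.53). Cnot8, a deadenylase, had a log2 ratio of -0.45, which was 0.16 without control set 1.

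The 4 mitochondrial lists had medians of -0.04 to 0.06. Of all 7344 genes, 10.8% were higher and 1.82% lower, with a median of 0.12. That median was 0.12 against control set 2 alone and 0.16 against control set 1 alone. Of 37 complex I genes 12 were measured, 3 of them higher and 0 lower, with a median of -0.04, or 0.05 against control set 2 alone and -0.15 against control set 1 alone. Besides Ndufa1, Ndufa11 had 10.2 and 21.8 CPM with resveratrol and 10.8 and 5.86 CPM in controls (log2 ratio 0.90, and 0.57 without control set 2), and Ndufa4 was at 0.63, or 0.56 without control set 2. Complexes II to V had 1 of 23 higher (Uqcr11, log2 ratio 1.21), 1 lower (Atp5o, -0.59, and -0.28 without control set 1) and a median of 0.06. Mitochondrial ribosomal proteins had 1 of 24 higher, Mrps27, whose log2 ratio of 0.96 was 0.31 without control set 1, and cytosolic ribosomal proteins had 2 of 22 higher and 1 lower at a median of 0.12. The cytosolic median was 0.31 without resveratrol set 1 and -0.18 without resveratrol set 2, where all genes had 0.11 and 0.09. The mitochondrial dynamics and quality control list had 0 of 15 past 1.5-fold and a median of 0.03, or 0.08 against control set 2 alone and -0.17 against control set 1 alone. Its most deviant member, the fission factor gene Mtfr2, had 733 and 766 CPM with resveratrol and 1293 and 806 CPM in controls. The proteasome list had 0 of 26 higher and 1 lower, Psma5, whose log2 ratio of -0.64 was 0.24 without control set 1. The list median of 0.02 was 0.10 against control set 2 alone and -0.21 against control set 1 alone.

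With all controls and library totals, the heat shock and DNA repair lists had shares near those of all genes, 10.8% higher and 1.82% lower. Of 24 measured heat shock and endoplasmic reticulum stress genes 3 were higher and 0 lower (median 0.15). The counts were 6 and 0 without control set 1, 4 and 1 without control set 2, and 0 and 0 with TMM. Of all genes, 9.21% were higher and 3.18% lower without control set 1, and 24.9% and 8.44% without control set 2. With TMM the shares of all genes were 5.12% and 5.39%. Hspa5, the main chaperone of the endoplasmic reticulum, had 127 and 139 CPM with resveratrol and 93.9 and 70.2 CPM in controls (log2 ratio 0.67, interval 0.63 to 0.72, and 0.50 without control set 2). Calr, which encodes the chaperone calreticulin, was at 0.67, or 0.62 without control set 1. Dnajb1, a cochaperone of Hsp70, was at 0.75, or 0.32 without control set 1. Of 25 measured DNA repair genes 2 were higher and 0 lower (median 0.11). Xrcc5, which encodes the Ku80 subunit of end joining, had 16.9 and 17.1 CPM with resveratrol and 9.01 and 9.13 CPM in controls (log2 ratio 0.91, interval 0.77 to 1.04). Its sets did not overlap and differed little within a group. Parp1, a sensor of DNA breaks, was at 0.76, or 0.37 without control set 1. Of 20 measured autophagy and lysosome genes 1 was higher, Ctsb, whose log2 ratio of 0.61 was 0.40 without control set 2 and -0.10 without the oocyte that carried macrophage markers. Of the 9 measured Bcl2 family and caspase genes 0 passed on library totals. With TMM 0 were higher and 2 lower, Bcl2l10 among them at -0.67. Bcl2l10, the abundant antiapoptotic gene of the oocyte, had 5526 and 5556 CPM with resveratrol and 7997 and 7708 CPM in controls (log2 ratio -0.51, interval -0.51 to -0.50). All 14 resveratrol oocytes, at 4641 to 6256 CPM, lay below all 20 control oocytes, at 6342 to 11300 CPM.

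In the chromatin and metabolism lists 1 or 2 members each were past 1.5-fold, where 12.6% of all genes were. Of 11 measured DNA methylation genes 1 was higher, Dnmt3l, the cofactor of de novo methylation, with 151 and 130 CPM with resveratrol and 61.3 and 98.6 CPM in controls (log2 ratio 0.85, and 0.51 without control set 1). This list had a median of 0.21, which was 0.47 against control set 1 alone and 0.11 against control set 2 alone. Zfp57, which protects imprints, was at 0.47, and 0.11 without control set 1. Of 23 measured histone methylation genes 1 was higher, the H3K9 methyltransferase gene Suv39h2 (251 and 152 CPM with resveratrol, 140 and 99.1 CPM in controls, log2 ratio 0.72, and 0.52 without control set 2), and the list median was 0.09, or -0.19 without control set 1. Glycolysis, citrate cycle and fatty acid oxidation had 2 of 24 higher, Hadha (log2 ratio 0.93, and 0.23 without control set 1) and Aldoa (0.81, and 0.49 without control set 1), at a median of 0.12. Cholesterol synthesis and uptake had 0 of 14 higher and 1 lower, Srebf2, at a median of -0.08, and the enzyme gene Sc5d was at -0.49, or -0.05 without control set 1. Of the markers of other cells, Cyp19a1 (aromatase, 56.4 CPM in each resveratrol set, 23.7 and 45.0 CPM in controls) and Laptm5 (17.2 and 11.3 CPM with resveratrol, 5.09 and 11 CPM in controls) were past 1.5-fold higher, with log2 ratios of 0.76 and 0.88, and of 0.32 and 0.37 without control set 1. Their cell types' part in this was not tested. In all, 8 of 23 lists had a median above that of all genes.

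**Figure D4:**
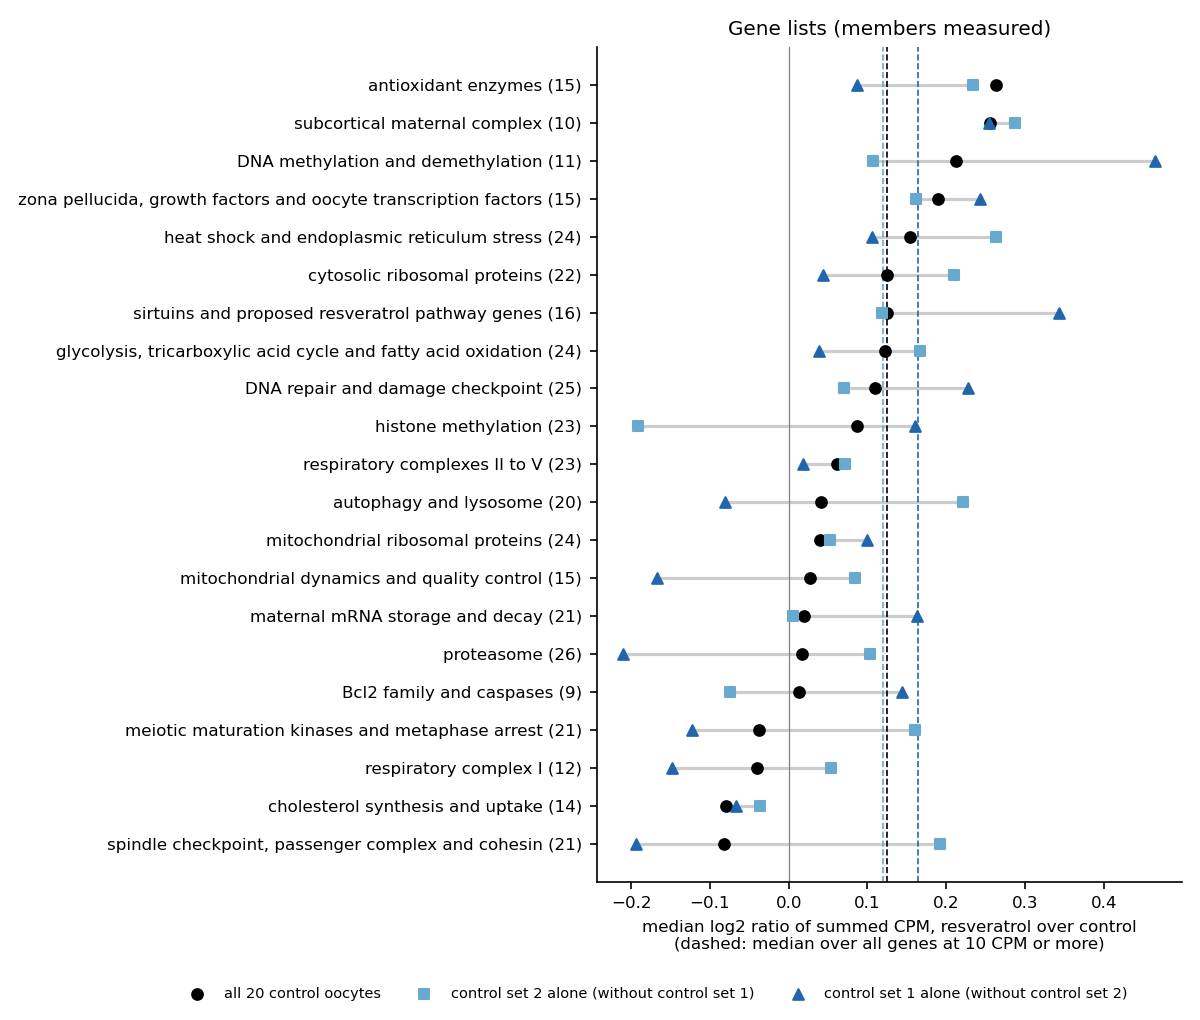
Median log2 ratio of summed CPM (resveratrol over control) of 21 gene lists, with measured members in brackets, for all controls (black circles), control set 2 alone (light squares) and control set 1 alone (dark triangles). Dashed lines mark the medians of all genes (0.12, 0.12 and 0.16); the medians of 8 lists lie on different sides of 0 for the 2 control sets.

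The difference between the control sets moved with transcript length. Of the 7344 genes 6358 (86.6%) have an exon length in the GENCODE vM21 annotation. Control set 1 over control set 2 had a median log2 ratio of 0.18 at summed exon lengths of 1000 to 2000 bases, 0.20 at 2000 to 4000 bases and -0.35 above 8000 bases. Resveratrol set 1 over control set 1 had medians of -0.18, -0.07 and 0.40 in these classes, and resveratrol set 2 over control set 1 had 0.00, 0.02 and 0.39. Against control set 2 the corresponding medians were 0.02, 0.13 and 0.06 for resveratrol set 1 and 0.15, 0.19 and 0.05 for resveratrol set 2. Against control set 1 the class above 8000 bases thus had the highest medians, and against control set 2 it did not. At 4000 to 8000 bases resveratrol set 1 had 0.14 over control set 1 and 0.13 over control set 2. Its medians over control set 2 therefore also rose with length up to 8000 bases in these classes. Transcripts of up to 1000 bases took 1.31 to 1.64% of the counts of resveratrol oocytes, 1.09 to 1.46% in control set 1 and 1.35 to 1.79% in control set 2. The median exon length was 1792 bases in the list of respiratory complexes II to V and 6954 bases in the histone methylation list, and the part of length in the list medians was not tested.

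**Figure D5:**
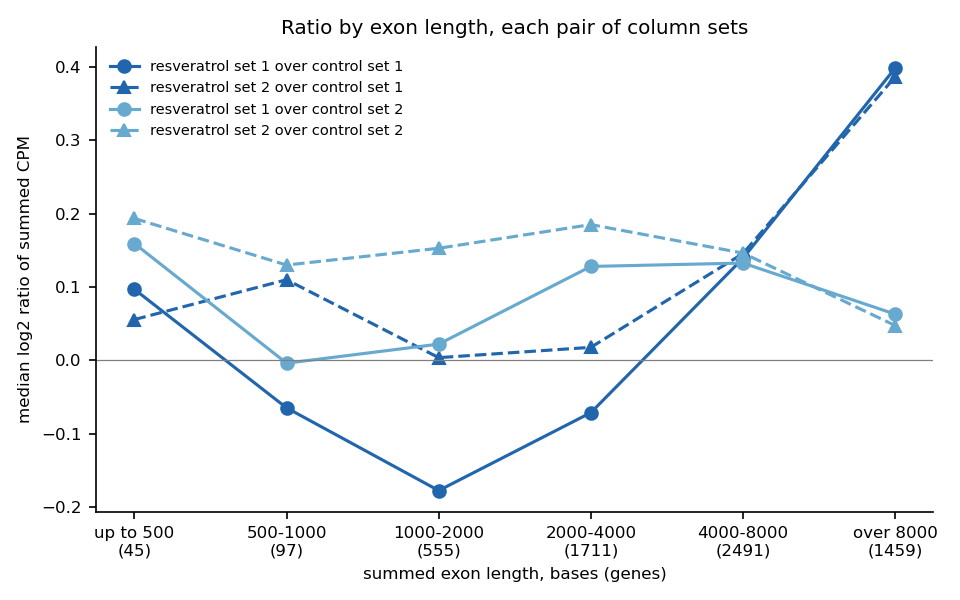
Median log2 ratio of summed CPM by class of summed exon length (bases, number of genes in brackets) for each pair of 1 resveratrol and 1 control set. Above 8000 bases both pairs with control set 1 (dark) reach 0.39 to 0.40, whereas both pairs with control set 2 (light) stay at 0.05 to 0.06.

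The same treatment was given in 3 other strata of the series, which share no oocytes with these groups: 6-month wild type (14 resveratrol, 20 control), 10-month Tet2 knockout (15 and 15) and 6-month knockout (20 and 20). Genes higher in 10-month wild type were not generally higher there. Of the 795 higher genes, 58 (7.30%) were past 1.5-fold higher and 100 (12.6%) lower in the 6-month wild type, where 3.99% and 8.10% of all 7344 genes were. In the 10-month knockout 20 (2.52%) were higher and 48 (6.04%) lower, against 0.817% and 1.67% of all genes, and in the 6-month knockout 4 (0.503%) were higher and 28 (3.52%) lower, against 0.790% and 1.01%. Of the 134 lower genes, 27, 2 and 6 were also lower in these strata in the same order and 28, 6 and 8 were higher. A separate table holds oocytes of 10-month C57BL6 mice, 10 with resveratrol and 6 controls, compared within that table only. There 48 of the 795 (6.04%) were higher and 20 (2.52%) lower, against 2.67% and 2.91% of all genes. Of the 134 lower genes 14 were lower there too and 10 were higher. Of the 237 genes higher against each control set, 26 (11%) were higher and 4 (1.69%) lower in C57BL6. In the 6-month wild type 22 (9.28%) of them were higher and 31 (13.1%) lower. In the 10-month knockout 5 (2.11%) were higher and 25 (10.5%) lower, and in the 6-month knockout 1 (0.422%) and 12 (5.06%). Of the 19 lower against each control set 6 were lower and 1 higher in C57BL6, and 4 were lower and 7 higher in the 6-month wild type. Ddhd1 was among the genes past 1.5-fold lower in C57BL6, with 33.6 CPM with resveratrol and 50.7 CPM in controls (log2 ratio -0.59). Kcnk18, Wfdc3 and Prelid1 had log2 ratios of -0.06, 0.02 and 0.13 there.

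Tests were possible where strata served as replicates. Over the 4 strata, with the stratum as a block, edgeR's quasi-likelihood test with Benjamini-Hochberg adjustment called 0 of 18732 genes (0.0%) for resveratrol, with 542 at an unadjusted p under 0.05, and DESeq2 called 4. The lowest p belonged to the nuclear receptor gene Nr2c1 (log2 ratio -0.60, SE 0.12, edgeR adjusted p 0.995). The test of whether the resveratrol ratio in 10-month wild type differed from that in the other strata also called 0 of 18732 in edgeR, with 1210 at an unadjusted p under 0.05, and DESeq2 called 43, 9 of them higher and 34 lower. Its lowest p was that of Kcnk18 (difference in log2 ratio 8.09, SE 0.73, edgeR adjusted p 0.429). Among the other genes not named by clone, the next lowest p was that of Hist1h2bf, a histone gene with near-identical copies, at -4.33 (SE 0.45). It had 1.63 and 1.5 CPM with resveratrol and 17.3 and 2.17 CPM in controls, and its own log2 ratio of -2.74 was -0.48 without control set 1. Without the 6-month wild type edgeR called 27 genes, without the 6-month knockout 2 and without the 10-month knockout 0. Wild-type and knockout strata are separate mice by their genotype, but the labels do not say how many mice each sum holds, so these p-values cover no more than the spread of these sums, which may be technical.

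A fit that counts each column set as a replicate, an assumption the labels do not make and one added after seeing the data, was run over all 26 sets. In edgeR it called 0 of 19666 genes (0.0%), with 1537 at an unadjusted p under 0.05, a lowest adjusted p of 0.168 and 22 calls (0.112%) by DESeq2. Without control set 1 edgeR called 8 genes (0.0376%), and without control set 2 it called 761 (3.58%), 348 higher and 413 lower. The count of calls thus turned on which control set was kept. With control set 1 left out, control set 2 was the only set of these controls. Ddhd1 and Tulp3 were among the calls of that fit, and the same oocytes of control set 2 were highest in both.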

How the data were processed

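RNA of single metaphase II oocytes was amplified with Smart-seq2 and sequenced as 150 bp pairs, per the labels. The deposited values are raw read counts per gene made by the authors. Per the submitters' processing notes the build was mm10 and the tools included featureCounts, HISAT2 2.1.0 and DESeq2, with no roles given, and strand use in counting is not stated. The table has 53619 genes, 28390 of which matched GENCODE vM21 by symbol, and C57BL6 oocytes are in a separate table, without 1 library with conflicting treatment labels.

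Counts were summed per group and scaled to CPM by library totals. The log2 ratio of sums has 0.5 counts added. A gene counted as past the fold at 1.5-fold and at least 10 CPM in the higher group. Intervals cover counting error only, since reads without molecular identifiers are not independent molecules. Tests used edgeR 4.0.16 (TMM, filterByExpr, adjusted p under 0.05) and DESeq2 1.42.0 in R 4.3.3 on summed counts, and the code was checked on simulated data. Python 3.11.15, numpy 2.4.6, pandas 2.3.3, scipy 1.17.1 and matplotlib 3.10.9 were used.

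The text names, at 20 CPM or more and with interquartile ranges of oocytes apart, the 12 largest and 12 smallest ratios past the fold, up to 2 genes with the largest absolute ratio per list, the lowest p-values of each test, and Sirt1 and Tet2. Clone-named models are not named by this rule, and 1 gene that it names is not reported here. Other genes (markers, Zbed3, Nlrp2, Nlrp5, Ndufa4, Calr, the other sirtuins) were named after their values were seen. Oocytes, genes and lists were chosen with earlier results of these data known. Alternatives were other scalings, filters and folds, thinning, and leaving out oocytes or strata. Leaving out column sets, the sets by number and the set-sum fit were added after seeing the data.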

Additional observations from a re-analysis of the deposited data

How the results depend on the processing

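The counts of genes past the fold depended on scaling, filter and control set. Against 795 higher and 134 lower, TMM gave 376 and 396, DESeq2 size factors 393 and 379, no filter on low values 7729 and 5275, and a fold of 2 gave 124 and 26. Sets numbered 1 alone gave 1940 and 886, and sets numbered 2 alone gave 832 and 418. Leaving out 1 set or 1 oocyte gave 678 to 1854 higher and 121 to 628 lower, with 678 and 234 without control set 1, 1854 and 628 without control set 2, and 1123 and 286 without resveratrol set 2. The test over 4 strata gave 24 calls with no filter and 4 with DESeq2, and 0 without each stratum. The test of the difference between strata gave 39 with no filter, 43 with DESeq2 and 0 to 27 (2 without the 6-month knockout) without each stratum. The set-sum test gave 186 with no filter, 22 with DESeq2, 2 with only the 4 sets compared and 0 to 761 (8 without control set 1) without each set.

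Among the genes past 1.5-fold, these log2 ratios changed sign. With number 1 alone Mapk3 was -0.15, Ndufa11 -0.075, Ctsb -0.34, Map3k12 0.23 and Pcbp2 0.48. With number 2 alone Gpx3 was 0.14, Rps2 0.14, Psma5 0.48, Dnajb1 -0.062 and Hadha -0.19. Leaving out 1 set gave -1.18 to 0.23 for Gpx3 and -1.09 to 0.24 for Psma5, both above 0 without control set 1, -1.39 to 0.35 for Map3k12 and -1.36 to 0.50 for Pcbp2, both above 0 without control set 2, and -0.13 to 1.09 for Ctsb, below 0 without resveratrol set 2. With the median of oocytes Ctsb was -0.13, Map3k12 0.074 and Pcbp2 0.18. Ctsb was -0.10 without 1 oocyte. Of the genes not past 1.5-fold at 10 CPM, Sirt1, Cnot8, Kdm2b, Kin, Gdpd3, Nr2c1, Nr5a2, Zfp36 and 2 clone-named models also changed sign under some choice of sets. The cause was not tested. The mean of oocytes and thinning to the lowest total moved no named ratio by more than the spread between sets. At 50 CPM the macrophage list gave no median.

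No paired analysis was possible because the columns do not carry the replicate numbers of the titles and the comparison of 2 groups comes from no test. With no mouse named, differences between mice and between treatments cannot be told apart.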

Other observations

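A clone-named gene model chosen after its values were seen, RP23-339L20.1, had 0.30 and 0.36 CPM in the resveratrol sets and 10.6 and 10.2 CPM in the control sets (log2 ratio -4.95). In C57BL6 oocytes its log2 ratio was -3.24, and in the 6-month wild type it was 0.92. In the 10-month knockout it had 37.9, 41.98 and 23.3 CPM in the resveratrol sets and 14.1, 23.4 and 22.4 CPM in the control sets. It was also near 0 without resveratrol, at 0.21 CPM in set 2 of the 2-month knockout.

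Gdpd3, which encodes a lysophospholipase D, had 1.53 and 1.66 CPM in the resveratrol sets, 1.39 CPM in control set 1 and 10.9 CPM in control set 2. The resveratrol sets were thus at the level of control set 1. In C57BL6 oocytes its log2 ratio was -1.56.

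The oocyte of resveratrol set 2 with the highest macrophage marker share (0.0214%) had 21.9 CPM of the Fc receptor gene Fcer1g and 131 CPM of Ctsb. The next highest share, 0.0093%, was that of a control set 2 oocyte. Without the first of these oocytes 861 genes were past 1.5-fold higher and 152 lower with resveratrol.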
